A study of Mus musculus with 12 samples.

Results

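Heart-derived cells that the series describes as resembling bone marrow mesenchymal stem cells (MSC) were compared with bone marrow MSC, gene by gene. A gene was a member of the comparison if the probe that stood for it was detected on all 4 arrays of at least one of the 2 tissues. That probe was the brightest of the gene's kept probes. The rule uses detection and not the size of any difference. Of 18889 annotated genes with a probe on the array, 9763 met this rule. The series holds single-colour Illumina bead arrays of cultured mouse cells from bone marrow, heart and kidney, with 4 arrays per tissue and total RNA on each. Its design text calls them biological replicates, without saying whether they came from separate animals or cultures, so each p-value sets a difference against the spread between these samples, which may be technical. Per the labels, RNA was purified on Qiagen columns with no DNase step, then amplified and biotin-labelled with Illumina's kit. Mouse strain, age, sex, passage, culture medium and sorting are not stated in the sources at hand, and no treatment, transgene or genetic change is named for either group.

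MSC are fibroblast-like stromal cells that were first defined in bone marrow by their growth on plastic and by their capacity to form bone, fat and cartilage. Stromal cells with similar growth and surface proteins can be grown from many organs, and those of the heart are related to the fibroblasts and perivascular cells of the epicardium and myocardium. Cultured stromal cells of different organs are known to keep a positional record of where they came from, carried in part by the Hox genes, whose order along a chromosome follows the order in which they are used along the body axis. Because whole cultures were measured, a lower level can mean fewer cells of a type or less RNA per cell, and these cannot be told apart.

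Signals are given as normalized log2 values of the brightest kept probe of each gene, and differences are heart minus bone marrow on the log2 scale ± SE from limma, with 4 arrays per tissue. A gene was called different when its Benjamini-Hochberg adjusted p over all 10797 genes tested was under 0.05. The mean lowest detected signal was 5.66 on the bone marrow arrays and 5.60 on the heart arrays, so values below about that level mark a probe that was not well above background. For a gene with no probe detected on any array of one tissue, or with a mean there below that level, a lower limit of the fold is stated, as "at least N-fold".

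Over all genes tested, 56% were called different in one direction or the other, 26.4% higher and 29.6% lower in heart. Among members, 2800 genes were higher and 3135 lower in heart, which is 28.7% and 32.1% of them, and 3828 were not called. Most differences were small. A called difference of at least 2-fold was found for 904 members higher in heart (9.26%, against 8.41% of all genes tested) and 598 lower (6.13%, against 5.59%). At 4-fold the counts were 328 higher and 103 lower, and at 16-fold they were 52 and 7. For 4307 members (44.1%), the whole 95% confidence interval of the difference lay within 1.5-fold either way, and 1244 of these were nevertheless called. The median difference over the members was -0.03. All 4 heart arrays lay above all 4 bone marrow arrays for 23.8% of genes tested and below them for 26.3%.

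Detection alone separated some members. Of the 9763, 8633 were detected on all 8 arrays, 759 on all heart arrays but not all bone marrow arrays, and 371 the other way round. Counting every probe of a gene, 245 members were seen on all 4 heart arrays and none of the bone marrow arrays, and 73 on all 4 bone marrow arrays and none of the heart arrays. Genes restricted to 1 tissue weigh on the counts of large rises: among the 8633 genes detected on all 8 arrays, 542 were at least 2-fold higher (6.28%) and 463 at least 2-fold lower (5.36%), out of 2290 higher (26.5%) and 2900 lower (33.6%) in all. Just outside the rule lay 528 tested genes for which that 1 probe was detected on at best 3 of the 4 arrays of a tissue.

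**Figure D1:**
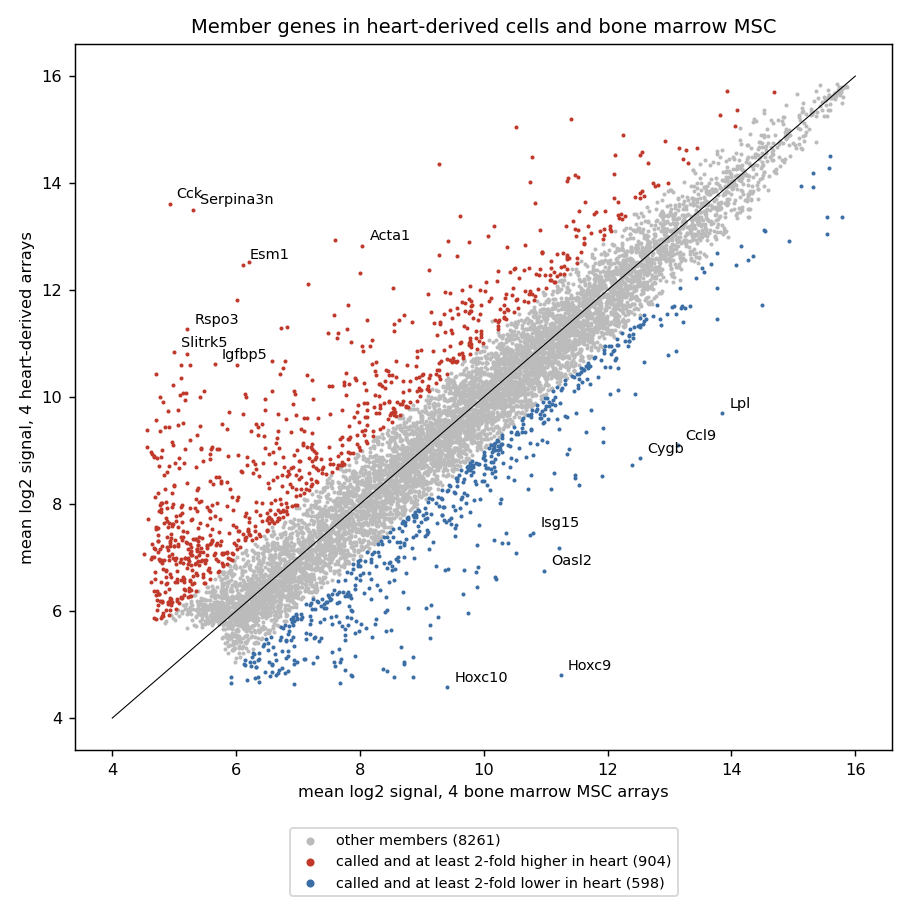
Mean normalized log2 signal of each of the 9763 member genes on the 4 bone marrow arrays (horizontal axis) and the 4 heart arrays (vertical axis), with the line of equal signal. Red and blue points are the 904 and 598 genes called and at least 2-fold higher or lower in heart, and the farthest points above the line (Cck, Serpina3n) lie at bone marrow values near the detection floor.

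Arrays of one tissue resembled each other closely. The mean correlation across genes was 0.994 between heart arrays and 0.990 between bone marrow arrays, against 0.913 to 0.929 between an array of one tissue and one of the other. Raw mean signals ran from 753.7 to 949.9 on the bone marrow arrays and from 934.6 to 1065.8 on the heart arrays, with 18635 to 19792 of 45281 probe entries detected. Bone marrow replicate 1 stood apart from the other bone marrow arrays, with the lowest raw mean and a mean correlation of 0.986 with the other 3, against 0.991 to 0.992 for those. Named genes whose call changes without it, and list counts that then move by over 1.5 times, are given below with and without it.

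The label of the heart cells was checked against marker genes. The stromal genes of the 2 tissues were shared in detection: of 12 genes listed for bone marrow MSC that had a probe, 11 were detected on all 4 arrays of both tissues. Their levels differed in part. Of the 11 tested, 4 were higher in heart, 2 lower and 5 not called, and without bone marrow replicate 1, 5 were higher and 4 lower. Pdgfra, the receptor that marks most mesenchymal stroma, read 11.76, 12.54, 12.70 and 12.80 in bone marrow and 12.10, 12.30, 12.37 and 11.96 in heart, and the groups overlapped (difference -0.27 ± 0.17, adjusted p = 0.207). Without bone marrow replicate 1 that difference was -0.50 (adjusted p = 0.000783). The endoglin gene Eng read 10.39, 10.54, 10.36 and 10.36 in bone marrow and 10.38, 10.24, 10.32 and 10.29 in heart (difference -0.11 ± 0.09, adjusted p = 0.32), so its ranges overlapped too. Thy1, a surface glycoprotein used to identify MSC, was higher in heart (1.86 ± 0.08, adjusted p = 9.67e-14), as were the adhesion receptor Cd44 (0.69 ± 0.10) and Nt5e, the ectonucleotidase CD73, at least 5.25-fold. Pdgfrb fell by 0.74 ± 0.18. Of the 16 listed MSC surface genes tested, 8 rose, 2 fell and 6 were not called, with a median of 0.59.

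Markers of other cell types were absent in part: of 122 such genes with a probe, 57 were detected on no array of either tissue. Among 21 macrophage and monocyte genes with a probe, 11 were detected on no array of either tissue, among them Ptprc, Itgam, Adgre1 and Tyrobp. The 7 of them that were tested averaged 6.94 to 7.16 on the bone marrow arrays and 7.05 to 7.38 on the heart arrays. Of these, 3 were higher in heart, the lysozymes Lyz1 (0.88 ± 0.11) and Lyz2 (0.67 ± 0.18) and the receptor Csf1r (0.77 ± 0.20), and 2 were lower, Trem2 (-0.98 ± 0.21) and Cd14 (-0.35 ± 0.12), the last not without heart replicate 4 (adjusted p = 0.0593). Among 18 endothelial genes, 5 were detected nowhere, including Kdr, Vwf, Cldn5 and Sox18. Esam, an endothelial adhesion gene, rose from background to 6.37, 5.90, 6.22 and 6.25 in heart, at least 1.44-fold (adjusted p = 1.12e-06), and was the only called gene of the 8 endothelial markers tested, with 2 called without heart replicate 4. Of 18 cardiomyocyte genes with a probe, 8 were detected on no array, among them Myh6, Actn2, Nppa and Pln, and 5 on all 4 heart arrays. These 5 were the ones tested, and their mean was 8.08 to 8.53 on the bone marrow arrays and 8.82 to 9.04 on the heart arrays. Of them 4 were higher in heart, Nppb (1.23 ± 0.22), the giant sarcomere protein Ttn (0.49 ± 0.20), the myosin light chain Myl4 (0.48 ± 0.10) and the troponin Tnnc1 (0.35 ± 0.12), and none was lower. Without bone marrow replicate 4 only 2 were higher, with adjusted p = 0.0508 for Tnnc1 and 0.133 for Ttn. The Tnnc1 call was also lost without bone marrow replicate 2 (adjusted p = 0.0604), and that of Ttn without bone marrow replicate 1 (adjusted p = 0.0644) or heart replicate 2 or 3 (0.135 and 0.0922). Nppb read 10.48, 10.02, 9.86 and 10.24 in the kidney cells, above heart (heart minus kidney -3.21 ± 0.22, adjusted p = 4.19e-10). Of 12 pericyte and smooth muscle genes, 3 were detected nowhere, Rgs5, Abcc9 and Higd1b, and 7 of the 9 tested were higher in heart, as given with the contractile genes. Of 12 epithelial and mesothelial genes, Upk1b alone was called (at least 1.83-fold higher). Mbp, a myelin gene, was at least 2.96-fold higher on its kept probe. Its other probes gave differences of 0.13, -0.34, 0.03 and -0.002, and each was detected on at most 1 array of a tissue. Of the 8 Schwann and neural crest genes with a probe, 4 were detected nowhere. Camp, a granulocyte peptide gene, was at least 2.34-fold lower. The cardiac fibroblast markers were mixed, with Tcf21 detected in heart and not in bone marrow and Tbx20 and Postn detected on no array of either tissue. The part of any such cells in the differences was not tested.

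The 15 largest rises, ranked by fitted difference, were headed by Cck, which encodes cholecystokinin, a peptide hormone of gut and brain. It read 5.46, 4.75, 4.80 and 4.69 on the bone marrow arrays, at or below the detection floor, and 13.72, 13.68, 13.58 and 13.48 on the heart arrays, and was at least 248-fold higher in heart (adjusted p = 2.74e-19). Ranks among genes at background in one tissue rest on values with no measured order. The heart arrays were thus all far above the bone marrow arrays. Kidney-derived cells of the same series read 9.29, 9.28, 9.35 and 9.79, between the 2 (heart minus kidney 4.19 ± 0.15, adjusted p = 1.29e-14). Serpina3n, a secreted serine protease inhibitor of the acute phase, read 4.70, 5.20, 5.57 and 5.76 in bone marrow and 13.15, 13.72, 13.97 and 13.17 in heart and was at least 224-fold higher (adjusted p = 6.43e-17). It was not detected in the kidney cells.

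Other secreted proteins filled much of the list of the 15 largest rises. Esm1, the proteoglycan endocan, read 7.20, 6.25, 5.51 and 5.48 in bone marrow and 12.32, 12.28, 12.45 and 12.86 in heart (difference 6.37 ± 0.26, adjusted p = 6.49e-14). Serping1, the C1 inhibitor that restrains complement and the contact system, rose by 6.32 ± 0.32 from values of 4.77, 6.39, 6.52 and 7.14 to 12.43, 12.76, 12.79 and 12.11. In neither gene did the groups overlap, although the bone marrow arrays were spread widely. Rspo3, a secreted enhancer of Wnt signalling, read 5.06, 5.48, 5.02 and 5.27 in bone marrow and 11.06, 11.51, 11.63 and 10.89 in heart and was at least 48.9-fold higher. Itgbl1, a secreted protein with integrin-like repeats, rose by 5.80 ± 0.20. Klk8, a secreted serine protease, was at least 35.2-fold higher, and Ecrg4, a peptide precursor, at least 30.8-fold.

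The rest of the 15 are membrane and intracellular proteins. Slitrk5, a transmembrane protein of neurons that shapes neurites and synapses, read 4.91, 5.12, 5.19 and 4.77 in bone marrow and 10.999, 10.86, 10.70 and 10.79 in heart and was at least 36.2-fold higher (adjusted p = 6.55e-17). The water channel Aqp1 read 8.36, 7.37, 7.22 and 7.42 in bone marrow, above the detection floor, and 12.98, 12.84, 12.87 and 13.04 in heart (difference 5.34 ± 0.16). Its 2 groups were separated by more than 4 log2 units. Cd55, the decay-accelerating factor that protects cells from complement, was at least 30.5-fold higher, the kinase Tnik at least 27.4-fold, the monoamine oxidase Maob at least 23.8-fold, the sulfotransferase Sult4a1 at least 25.8-fold and the inhibitory G protein subunit Gnai1 at least 20.2-fold. Mouse Serpina3n and Cd55 have close paralogues, as do Gzmd, Apol9b, Oasl2, Kng1, Cd59a, C1s1 and the histone genes below, and whether their probes tell the copies apart was not tested.

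**Figure D2:**
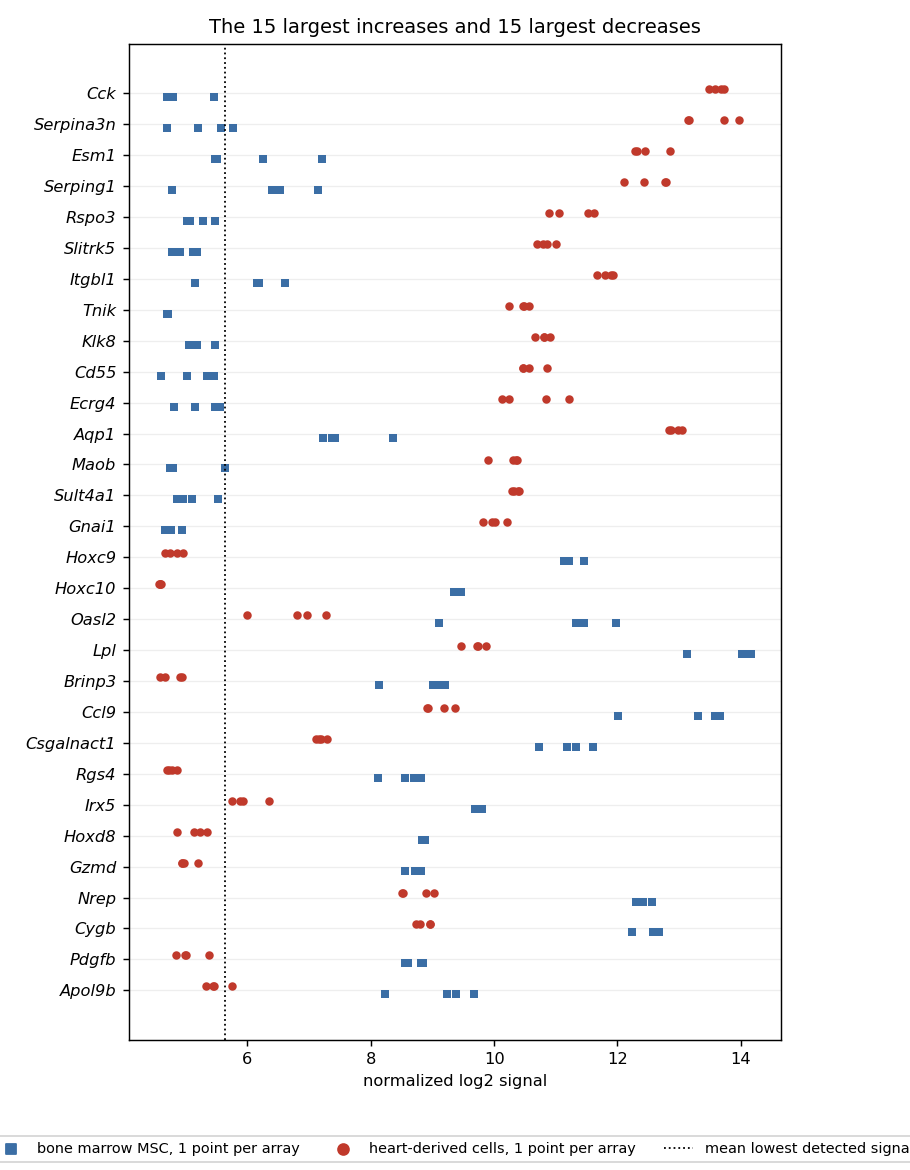
Normalized log2 signal of the 15 genes with the largest rise and the 15 with the largest fall in heart, 1 point per array (blue squares bone marrow, red circles heart), with the mean lowest detected signal as a dotted line. The 2 tissues do not overlap for any of the 30 genes, and most of the lower values sit at or below the dotted line.

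The 15 largest falls, ranked in the same way, include Hoxc9 and Hoxc10, developmental transcription factors of the trunk and hindlimb. Hoxc9 read 11.46, 11.13, 11.21 and 11.18 in bone marrow and 4.96, 4.66, 4.74 and 4.86 in heart, at least 49.97-fold lower (adjusted p = 7.27e-20). Hoxc10 read 9.39, 9.35, 9.44 and 9.46 in bone marrow and 4.59, 4.56, 4.60 and 4.58 in heart on the brighter of its 2 probes, at least 14.03-fold lower. Neither of these probes was detected on a heart array. The second Hoxc10 probe was detected on 3 heart arrays and gave a smaller difference, -2.95, from a mean of 8.77 in bone marrow and 5.83 in heart. In the kidney cells Hoxc9 read 12.04, 12.03, 12.01 and 12.14 and Hoxc10 10.06, 10.36, 9.90 and 10.40, so that heart was lower than kidney too (adjusted p = 7.58e-21 and 9.22e-18).

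Lpl, the lipoprotein lipase that releases fatty acids from circulating fat, read 13.13, 14.01, 14.09 and 14.17 in bone marrow and 9.74, 9.46, 9.73 and 9.86 in heart and fell by 4.15 ± 0.16 (adjusted p = 2.95e-14). Ccl9, a chemokine, read 12.001, 13.59, 13.30 and 13.67 in bone marrow and 8.93, 9.37, 9.19 and 8.91 in heart, and fell by 4.04 ± 0.24. For both genes bone marrow replicate 1 was the lowest of its group and still more than 2 log2 units above the heart arrays. Csgalnact1, which starts chondroitin sulfate chains, fell by 4.02, Nrep, a small neuronal regeneration protein, fell by 3.66, and the fibroblast globin Cygb fell by 3.66. Cygb read 12.24, 12.58, 12.67 and 12.59 in bone marrow and 8.80, 8.96, 8.96 and 8.73 in heart. Brinp3 was at least 9.6-fold lower, the G protein signalling regulator Rgs4 at least 7.7-fold, the granzyme gene Gzmd at least 8.63-fold and the growth factor Pdgfb at least 8.61-fold. The remaining genes of the 15, Irx5, Hoxd8, Oasl2 and Apol9b, are described with their groups.

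Hox genes split in part by their position in the clusters and in part by cluster. All 8 tested genes of paralogue groups 1 to 5, which pattern the anterior body, were higher in heart, with a median difference of 2.87. These 8 lie in the Hoxa and Hoxb clusters, and no Hoxc or Hoxd gene of these groups was tested. Position and cluster therefore cannot be fully told apart. Hoxb4 read 5.33, 4.87, 4.94 and 5.61 in bone marrow and 9.92, 10.12, 10.17 and 10.09 in heart and was at least 21.3-fold higher (adjusted p = 1.08e-15). Hoxa5 was well above background in both tissues, at 10.32, 10.07, 10.17 and 10.07 in bone marrow and 13.18, 13.21, 13.14 and 13.28 in heart (difference 3.04 ± 0.07, adjusted p = 3.08e-17). The groups were separate in both genes. Hoxb2 was at least 19.4-fold higher, Hoxb5 rose by 3.90 ± 0.21, Hoxa2 by 2.70 ± 0.11 and Hoxa4 by 2.69 ± 0.19, while Hoxb3 and Hoxa3 were at least 2.56-fold and 1.4-fold higher. In the kidney cells Hoxb4 read 9.24, 9.06, 8.93 and 8.82 and Hoxa5 12.57, 12.46, 12.50 and 12.45, below heart by 1.06 ± 0.15 and 0.71 ± 0.07. Hoxa2, Hoxa4 and Hoxb3 were also lower in kidney than in heart. Hoxb2, Hoxb5 and Hoxa3 were not called between heart and kidney (adjusted p = 0.27, 0.125 and 0.433). All 8 were called higher in kidney than in bone marrow too.

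Of the 15 tested Hox genes of groups 6 to 13, which pattern the trunk, limbs and tail, 8 fell, 2 rose and 5 were not called, with a median of -1.16. The 2 that rose lie in the Hoxb cluster: Hoxb7 read 6.55, 6.63, 6.71 and 6.42 in bone marrow and 10.81, 10.58, 10.66 and 10.63 in heart (difference 4.09 ± 0.10), and Hoxb6 was at least 3.76-fold higher. Both were higher still in the kidney cells (heart minus kidney -1.15 ± 0.10 and -1.03 ± 0.14). No Hoxb gene fell. The fall was clearest in the Hoxc cluster, where Hoxc6 read 10.22, 10.25, 10.39 and 10.28 in bone marrow and 7.48, 7.50, 7.12 and 6.95 in heart (fell by 3.02 ± 0.11) and Hoxc13 was at least 3.1-fold lower, beside Hoxc9 and Hoxc10. Hoxa9 fell by 2.08, and lower bounds of the fall were 2.2-fold for Hoxa10 and 9.58-fold for Hoxd8. Hoxa7, whose gene lies between Hoxa5 and Hoxa9, read 10.19, 9.72, 9.79 and 9.75 in bone marrow against 9.66, 9.79, 9.71 and 9.79 in heart (difference -0.13 ± 0.11, adjusted p = 0.342). Its groups overlapped.

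**Figure D3:**
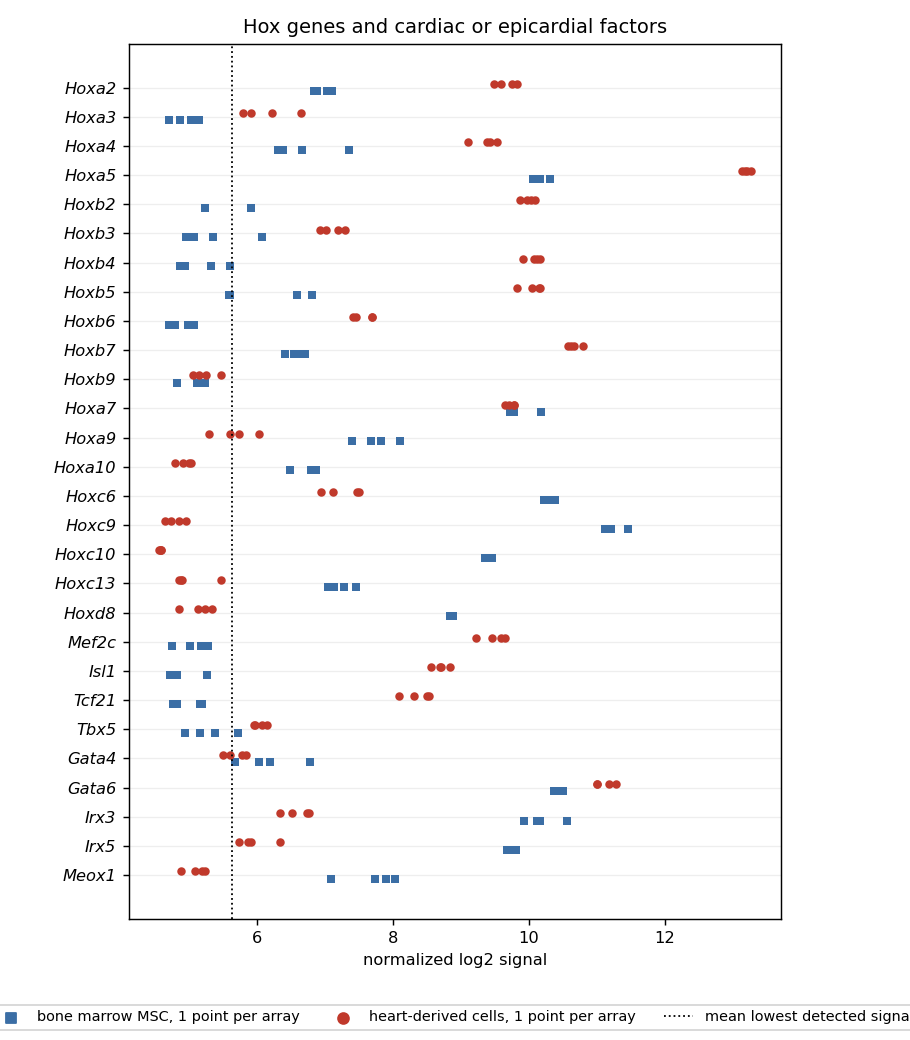
Normalized log2 signal of 19 Hox genes and 9 cardiac, epicardial or related transcription factors, 1 point per array (blue squares bone marrow, red circles heart), with the mean lowest detected signal as a dotted line. Hoxa2 to Hoxb7 lie higher in heart, Hoxa9, Hoxa10 and the Hoxc genes lie higher in bone marrow, and Hoxa7 and Hoxb9 overlap.

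Among 22 tested transcription factors of the heart and epicardium, 13 rose, 5 fell and 4 were not called. Mef2c, a factor of the heart field and of muscle, read 5.18, 5.28, 4.76 and 5.02 in bone marrow and 9.46, 9.60, 9.65 and 9.23 in heart and was at least 14.2-fold higher (adjusted p = 3.11e-15). Isl1, a marker of second heart field progenitors, read 4.81, 5.27, 4.83 and 4.73 and 8.85, 8.71, 8.56 and 8.69 in the same order and was at least 8.23-fold higher. Tcf21, a factor of epicardium and cardiac fibroblasts, read 4.83, 5.17, 5.19 and 4.78 in bone marrow and 8.31, 8.50, 8.54 and 8.10 in heart, at least 6.5-fold higher. All 3 were undetected in bone marrow. In the kidney cells Isl1 and Tcf21 were not detected and Mef2c read 7.09, 6.97, 6.82 and 6.93.

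Foxf1, a factor of splanchnic mesoderm, rose by 2.26 ± 0.12, Prrx1, a factor of limb and stromal mesenchyme, by 1.41 ± 0.09, and Gata6 by 0.69 ± 0.08. Against the kidney cells, Foxf1 and Prrx1 were higher in heart (3.16 ± 0.12 and 1.92 ± 0.09). Gata6 was lower in heart than in kidney (heart minus kidney -0.54 ± 0.08, adjusted p = 1.29e-05). Tbx5, which patterns heart and forelimb, was barely above background in heart (5.98, 6.08, 5.96 and 6.15) and at least 1.29-fold higher. Falls were seen in Irx5 (-3.77, from 9.81, 9.73, 9.68 and 9.73 to 5.87, 5.92, 6.34 and 5.74), Irx3 (-3.61) and Meox1 (at least 4.26-fold), 3 homeobox genes of patterning. Both Iroquois genes were separate between the tissues by more than 3 log2 units. Tbx18, an epicardial factor, was near background in both tissues and not called. Gata4 read 6.78, 6.04, 6.20 and 5.68 in bone marrow and 5.61, 5.78, 5.85 and 5.50 in heart, with overlapping groups (difference -0.49 ± 0.20, adjusted p = 0.0476). That call was lost when bone marrow replicate 1, 2 or 3 or heart replicate 1, 2 or 4 was left out, with differences of -0.28 to -0.53. Tbx20, Hand2 and Nkx2-5 were detected on no array of either tissue.

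Peptide hormones and vasoactive factors were also mostly higher in heart: 17 of 24 tested genes were higher, 3 lower and 4 not called, with a median of 1.21 against -0.03 over all genes. Ramp3, which turns the calcitonin receptor-like receptor into an adrenomedullin receptor, read 7.78, 6.82, 6.40 and 6.29 in bone marrow and 11.45, 11.24, 11.12 and 11.44 in heart (difference 4.49 ± 0.23, adjusted p = 2.20e-12). Adm, the ligand adrenomedullin, read 8.54, 9.15, 8.44 and 8.74 and 11.39, 11.35, 11.83 and 11.59, a rise by 2.82 ± 0.15. Ligand and receptor partner were both separate between the tissues. Vip, the vasoactive intestinal peptide, read 4.90, 4.52, 4.54 and 4.76 in bone marrow and 9.001, 8.36, 8.92 and 9.30 in heart and was at least 9.41-fold higher, and Tac1, the precursor of substance P, at least 5.14-fold. The endothelin receptor Ednrb rose by 3.88 ± 0.27. The bradykinin receptor Bdkrb1 was at least 4.45-fold higher. The difference was 2.34 ± 0.15 for the prostaglandin synthase Ptgs2 and 1.23 ± 0.22 for the natriuretic peptide Nppb, which was higher in kidney than in heart, as given above. Opposite values were found for Kng1, the kininogen (-2.94 ± 0.23), and Npr3, the natriuretic peptide clearance receptor (-1.88 ± 0.11).

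The insulin-like growth factor (IGF) axis had 13 genes higher, 4 lower and 5 not called, with a median of 0.60. Grb10, an imprinted adaptor that damps insulin and IGF receptors, was bright in heart at 15.06, 15.05, 15.05 and 15.03, against 10.29, 10.40, 10.73 and 10.63 in bone marrow (difference 4.53 ± 0.08, adjusted p = 9.96e-19). Igfbp5, a binding protein of IGF, read 6.01, 5.43, 5.65 and 5.52 in bone marrow and 10.48, 10.60, 11.11 and 10.26 in heart and was at least 29.3-fold higher. Neither gene overlapped. Igfbp2 rose by 3.73 ± 0.15, and the ligand gene Igf1 had a difference of 0.91 ± 0.18. Igfbp4 was lower by value (-0.72 ± 0.09), and Htra1, a protease that cleaves binding proteins, fell by 1.70. Grb10 is one of 15 tested imprinted genes, of which 9 rose and 1 fell. Peg3 was at least 11.7-fold higher, reading 5.59, 4.85, 5.24 and 5.31 in bone marrow and 9.15, 9.38, 9.13 and 9.17 in heart, and Ndn rose by 1.64 ± 0.09. The one that fell was Dlk1.

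Of 28 tested genes of the bone morphogenetic protein (BMP) and TGF-beta system, 16 were higher, 7 lower and 5 not called. Fst, follistatin, which binds activin, read 10.03, 9.60, 9.55 and 9.30 in bone marrow and 13.33, 13.39, 13.40 and 13.39 in heart (difference 3.75 ± 0.11, adjusted p = 3.39e-16). Grem1, the BMP antagonist gremlin, read 10.89, 10.72, 10.71 and 10.79 and 14.47, 14.38, 14.64 and 14.45, a rise by 3.71 ± 0.08. Both heart groups were tight and lay far above bone marrow. Chrd, chordin, rose by 2.57 ± 0.19, the type I receptor Bmpr1b by 3.19 ± 0.14, and Acvrl1, another type I receptor, was at least 4.999-fold higher. The ligand Bmp4 was at least 1.9-fold higher, and Id2, a transcriptional target of BMP signalling, had a difference of 1.65 ± 0.14. The 7 lower genes were Bmp1, a procollagen protease, the BMP signal inhibitor Smad6 (-0.88 ± 0.13), the activin subunit Inhba (-0.60 ± 0.10), the ligands Tgfb1 (-0.48 ± 0.11) and Tgfb2 (-0.55 ± 0.12), the antagonist Fstl3 (-0.53 ± 0.12) and the receptor Acvr1 (-0.42 ± 0.08).

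Growth factors of the FGF, VEGF and PDGF families went both ways, with 11 of 30 higher, 9 lower and 10 not called. That is 36.7% higher and 30% lower, against 26.4% and 29.6% of all genes tested. Fgf10, a ligand that stromal cells send to epithelium, read 5.25, 5.32, 5.74 and 5.60 in bone marrow and 10.19, 10.04, 10.28 and 9.93 in heart and was at least 21.6-fold higher. Angpt2, a ligand of the endothelial receptor Tie2, read 8.12, 8.09, 7.97 and 7.85 in bone marrow and 12.30, 12.23, 12.59 and 12.18 in heart, a rise by 4.32 ± 0.11. The heart arrays were above the bone marrow arrays in both. Fgf2 rose by 3.26 ± 0.17, and the receptor Fgfr2 by 2.01 ± 0.08. Vegfa had the opposite sign (-0.69 ± 0.07), as did Pdgfb. Of 18 tested Wnt pathway genes (ligands, R-spondins, inhibitors, receptors and targets), 8 were higher, 5 lower and 5 not called. The share that fell, 27.8%, was near the 29.6% of all genes tested, and 44.4% rose, against 26.4%. Besides Rspo3, the ligand Wnt5a rose by 0.84 ± 0.10 and the intracellular antagonist Nkd2 rose by 2.51 ± 0.14, while Wnt5b fell by 1.57 and the receptor Fzd2 fell by 1.39.

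Chemokines were lower in heart: of 15 tested, 10 fell, 1 rose and 4 were not called, with a median of -1.50. Ccl7, a monocyte attractant, read 13.72, 13.84, 13.70 and 13.78 in bone marrow and 11.40, 11.50, 11.58 and 11.35 in heart (fell by 2.30 ± 0.08, adjusted p = 4.81e-15). Cxcl10, an interferon-induced attractant of T cells, read 7.95, 8.62, 8.55 and 8.64 and 4.84, 5.13, 4.71 and 4.88 and was at least 7.16-fold lower. The T cell attractant Ccl5 fell by 2.41, Ppbp was at least 3.94-fold lower, and Ccl2 had a difference of -1.50 ± 0.13. Ccl27a was the one that rose (0.98 ± 0.10), and 2 rose without bone marrow replicate 3 or heart replicate 4. Cxcl12, which holds blood stem cells in the marrow, was bright in both tissues, at 13.76, 14.85, 14.87 and 15.14 in bone marrow and 14.52, 14.71, 14.47 and 14.42 in heart, and was not called (-0.13 ± 0.18, adjusted p = 0.595). Its call depended on bone marrow replicate 1 and on the probe: without that array the difference was -0.42 (adjusted p = 8.11e-05), and with the mean of its probes it was 0.64 (adjusted p = 0.00509).

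Interleukin-1, interleukin-6 and acute-phase genes were more often higher than lower, with 11 of 22 higher, 2 lower and 9 not called. Without bone marrow replicate 1, 4 were lower. Il6st, the shared signalling receptor gp130, rose by 1.92 ± 0.20, and Il6 by 1.21 ± 0.20. Il11, another ligand of that receptor, fell by 1.85, from 10.01, 9.29, 9.57 and 9.63 to 8.02, 7.49, 7.65 and 7.93. Complement and coagulation genes were split, with 9 of 18 higher, 5 lower and 4 not called. The share that fell, 27.8%, was near the 29.6% of all genes tested, and 50% rose, against 26.4%. The rises include Serping1 and Cd55, described above, Tfpi, the tissue factor pathway inhibitor (3.09 ± 0.14), and the complement protease C1s1 (1.25 ± 0.16). Against these, complement component C2 read 7.50, 9.29, 9.68 and 9.82 in bone marrow and 6.14, 6.45, 6.31 and 5.29 in heart (fell by 3.02 ± 0.37), and the complement inhibitor Cd59a fell by 1.43. In C2, bone marrow replicate 1 was more than 1 log2 unit below the other bone marrow arrays and still above all heart arrays.

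**Figure D4:**
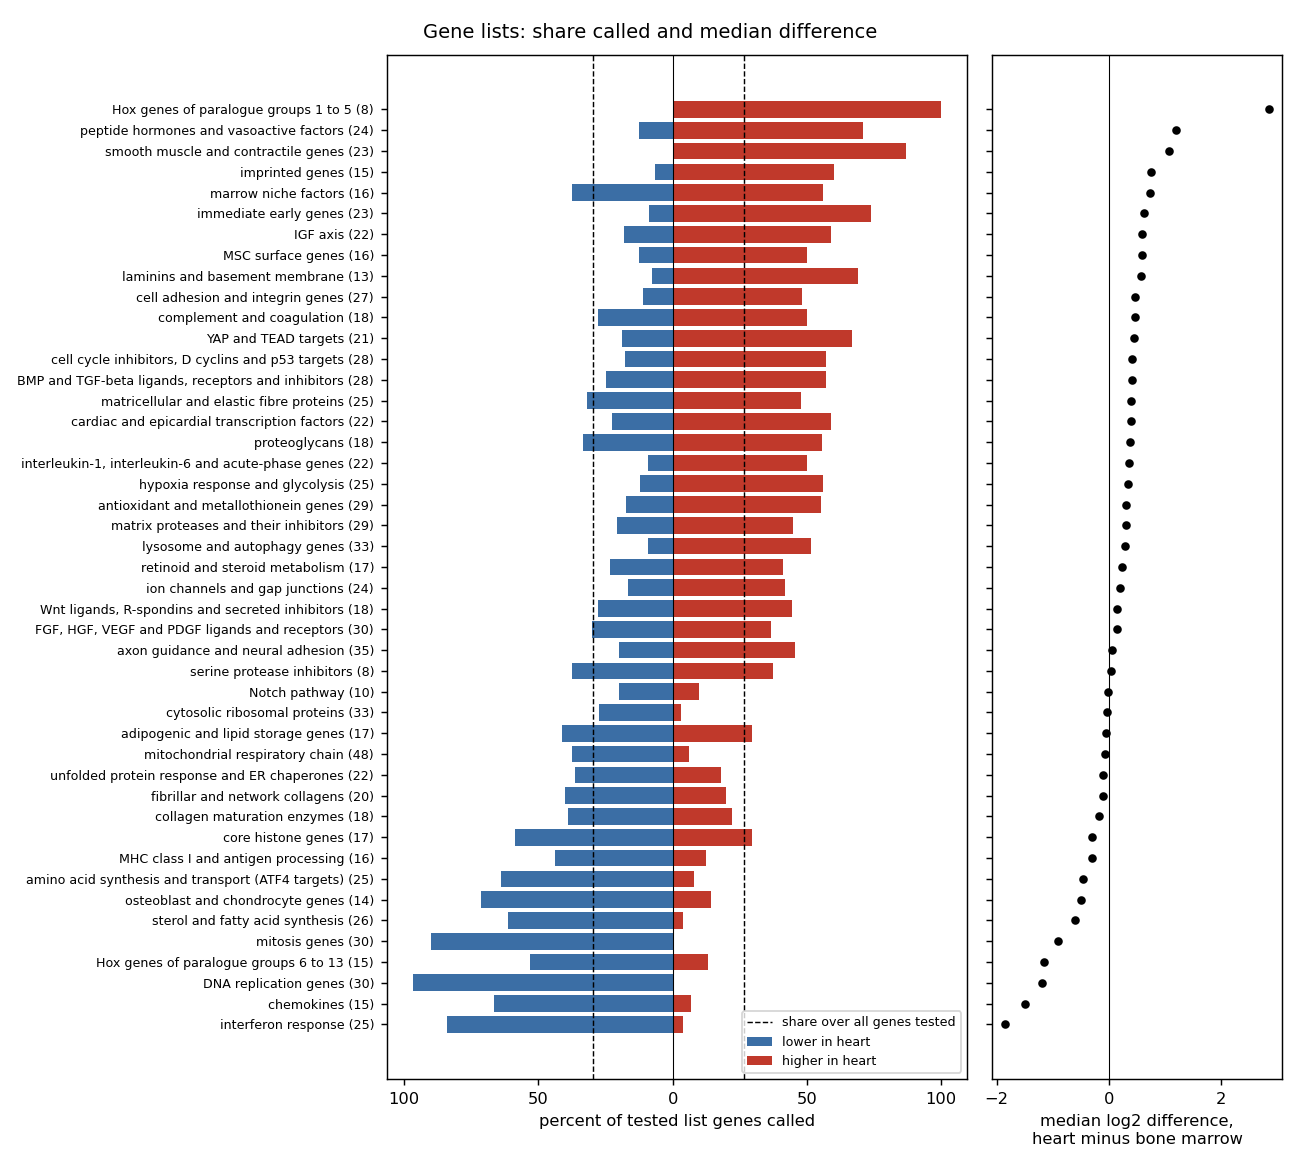
For each gene list, the percent of its tested genes called higher (red, to the right) or lower (blue, to the left) in heart, with the number tested in brackets and the shares over all genes tested, 26.4% and 29.6%, as dashed lines; the right panel gives the median log2 difference. Hox groups 1 to 5, peptide hormones and contractile genes lie at the upper end, and interferon, chemokine and DNA replication genes at the lower end.

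Collagen genes showed no common direction, with 4 of 20 higher, 8 lower and 8 not called. That is 20% higher and 40% lower, against 26.4% and 29.6% of all genes tested. The main fibrillar collagens were close: Col1a2 read 10.57, 10.94, 10.997 and 11.59 in bone marrow and 11.28, 11.13, 11.40 and 11.16 in heart (difference 0.22 ± 0.15, adjusted p = 0.213), and Col3a1 8.79, 9.96, 10.30 and 11 and 9.76, 9.84, 10.05 and 9.01 (difference -0.35 ± 0.32, adjusted p = 0.378). The groups overlapped in both, and both calls hung on 1 array: Col1a2 was 0.41 (adjusted p = 0.00394) without bone marrow replicate 4, and Col3a1 -0.75 (adjusted p = 0.00423) without bone marrow replicate 1. Col1a1 fell by 0.50, a call lost without bone marrow replicate 4 (-0.30, adjusted p = 0.0546). Larger falls were those of Col7a1, the anchoring fibril collagen (-2.98, from 11.50, 11.22, 11.64 and 11.54 to 8.56, 8.48, 8.24 and 8.70), and of the microfibrillar Col6a2 (-2.55) and Col6a1 (-1.45). Col8a1, a short-chain collagen of vessel walls, rose by 2.02 ± 0.09. Pcolce2, an enhancer of procollagen cleavage, fell by 3.14 ± 0.13.

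Basement membrane genes rose: 9 of 13 tested were higher, 1 lower and 3 not called, with a median of 0.58. Smoc1 read 8.60, 8.81, 8.53 and 8.61 in bone marrow and 11.49, 11.47, 11.56 and 11.24 in heart (difference 2.80 ± 0.09, adjusted p = 1.22e-15), Nid2, a nidogen that links laminin to collagen IV, rose by 2.17 ± 0.16, and the laminin receptor Dag1 by 1.78 ± 0.13. Agrn, the proteoglycan agrin, was the one that fell (-0.86). Among proteoglycans and their synthases 10 of 18 rose and 6 fell (55.6% and 33.3%, against 26.4% and 29.6% of all genes tested). Prelp, a leucine-rich repeat proteoglycan, read 8.50, 9.30, 9.51 and 9.78 in bone marrow and 14.34, 14.54, 14.64 and 13.89 in heart (difference 5.08 ± 0.20, adjusted p = 2.87e-14), and the kidney cells, at 8.82, 8.99, 9.15 and 9.21, lay within the bone marrow range. Cspg4, the pericyte proteoglycan NG2, rose by 1.90 ± 0.16 and decorin, Dcn, by 1.61 ± 0.16, while the hyaluronan synthase Has2 fell by 2.36. The large proteoglycan versican, Vcan, fell by 0.42 (adjusted p = 0.0369), with bone marrow replicate 1 within the heart range. That call was lost without bone marrow replicate 2, 3 or 4 or heart replicate 1 or 3, at adjusted p values up to 0.132.

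The thrombospondins moved in opposite directions. Thbs1 read 11.55, 11.47, 11.66 and 11.43 in bone marrow and 13.83, 14.37, 14.17 and 14.07 in heart (difference 2.58 ± 0.11), while Thbs2 read 14.66, 14.98, 15.06 and 15.05 and 12.90, 12.99, 12.96 and 12.85 (fell by 2.01 ± 0.08). Matricellular and elastic fibre genes as a list were 12 of 25 higher and 8 lower, and 11 higher and 11 lower without bone marrow replicate 1. With all arrays the shares were 48% and 32%, against 26.4% and 29.6% of all genes tested. Mfap2, of elastic microfibrils, fell by 1.68. Of 29 matrix proteases and their inhibitors, 13 rose, 6 fell and 10 were not called. Mmp16, a membrane-anchored metalloproteinase, was at least 17.01-fold higher, the secreted protease Adamts9 rose by 3.10 ± 0.22, Mmp3, stromelysin, rose by 3.00 ± 0.21 and the inhibitor Timp3 by 2.68 ± 0.10, while the collagenase Mmp13 fell by 2.71 and Bmp1, which trims procollagen, fell by 1.10.

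Contractile and smooth muscle genes had the highest share of rises after the anterior Hox genes: 20 of 23 tested were higher, none was lower, and 3 were not called, with a median of 1.09. The mean over the list was 9.66 to 9.77 on the bone marrow arrays and 11.13 to 11.19 on the heart arrays. The list of pericyte and smooth muscle cell markers moved with it: 7 of 9 tested were higher and none lower (6 without bone marrow replicate 1), with a median of 1.29 and a mean of 7.48 to 7.67 on the bone marrow arrays and 9.02 to 9.20 on the heart arrays. Both lists hold 5 genes in common, Acta2, Cnn1, Des, Myh11 and Tagln. Besides these and Cspg4, the melanoma cell adhesion gene Mcam rose by 1.29 ± 0.11, and Kcnj8, a potassium channel, was at least 1.1-fold higher (adjusted p = 0.0473). The Kcnj8 call was lost with a replicate block (adjusted p = 0.0684) and without bone marrow replicate 1, 3 or 4 or heart replicate 1, 2 or 4, at up to 0.202. Cnn1, calponin, was at least 1.17-fold higher. The part of such cells in the result was not tested. Acta1, skeletal muscle alpha-actin, read 8.28, 7.93, 8.14 and 7.81 in bone marrow and 12.98, 12.74, 12.52 and 13.07 in heart (difference 4.79 ± 0.12, adjusted p = 6.77e-17). Myh11, the smooth muscle myosin heavy chain, read 4.73, 4.72, 4.62 and 5.13 and 9.15, 9.22, 8.91 and 8.78 and was at least 10.2-fold higher. Neither gene overlapped between the tissues. The kinase Mylk rose by 3.55 ± 0.21, the filament gene Des was at least 4.41-fold higher, Lmod1, a leiomodin, rose by 2.53 ± 0.11, and the actin-binding Tagln had a difference of 1.97 ± 0.09. In the kidney cells Mylk, Des and Tagln were higher than in heart (heart minus kidney -2.15 ± 0.21, -2.63 ± 0.12 and -0.80 ± 0.09). Myh11 and Lmod1 were not called between heart and kidney (adjusted p = 0.198 and 0.137), and Acta1 was higher in heart than in kidney (0.89 ± 0.12). Acta2, the smooth muscle alpha-actin that is common to cultured myofibroblasts, was among the brightest genes of both tissues, at 15.78, 15.59, 15.62 and 15.66 in bone marrow and 15.70, 15.65, 15.71 and 15.64 in heart (difference 0.01 ± 0.06, adjusted p = 0.89). With the mean of its probes the Acta2 difference was 0.26 (adjusted p = 0.0017).

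The CArG box, which serum response factor binds in many contractile genes, was searched on both strands in the promoters of these genes (300 bases each, 250 before and 50 after the start). It was present in 5 of 19 list genes with a promoter (26.3%), against 1.63% of all 32851 promoters in the table and 1.7% of the 8719 tested genes with a promoter. A match describes the letters, not a bound site. The Acta1 promoter is shown because it is the gene of the list with the largest difference, with the CArG box in capitals (RefSeq, GRCm38.p6, chr8:123894726-123895025, minus strand, 5′ to 3′).
Acta1: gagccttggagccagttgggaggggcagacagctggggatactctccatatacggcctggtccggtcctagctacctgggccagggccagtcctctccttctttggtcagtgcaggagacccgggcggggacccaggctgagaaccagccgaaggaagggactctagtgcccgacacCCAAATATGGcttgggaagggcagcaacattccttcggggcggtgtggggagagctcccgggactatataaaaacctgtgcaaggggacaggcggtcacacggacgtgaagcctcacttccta

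Adhesion genes were more often higher, with 13 of 27 rising, 3 falling and 11 not called. Icam1, a leukocyte adhesion receptor, read 5.72, 6.21, 6.23 and 6.46 in bone marrow and 10.09, 10.04, 10.12 and 9.76 in heart (difference 3.85 ± 0.17, adjusted p = 2.70e-13). Vcam1, which anchors blood cells to stroma, read 12.02, 12.30, 12.03 and 12.10 and 14.14, 14.03, 14.20 and 14.30, a rise by 2.06 ± 0.07. Both were separate between the tissues. The collagen-binding integrin chains Itga11 and Itga1 rose by 3.27 ± 0.22 and 2.32 ± 0.18. Axon guidance genes divided into 16 of 35 higher, 7 lower and 12 not called. The semaphorin Sema3f read 6.69, 7.86, 8.19 and 8.52 in bone marrow and 11.52, 11.90, 11.98 and 11.50 in heart (difference 3.91 ± 0.25), the Slit receptor Robo1 rose by 3.50 ± 0.16, Sema5a by 3.08 ± 0.15 and the neural adhesion gene Nrcam by 2.88 ± 0.20. Sema7a and the netrin Ntn4 had differences of -2.34 ± 0.19 and -1.80 ± 0.21. Among 24 ion channel and gap junction genes, 10 rose and 4 fell. The calcium-activated chloride channel Ano1 was at least 4.87-fold higher and the potassium channel subunit Kcne4 rose by 2.35 ± 0.22, while the gap junction gene Gjb2 fell by 2.48.

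DNA replication and mitosis genes were lower in heart almost throughout. Of 30 replication genes tested, 29 fell and none rose, with a median of -1.19, and of 30 mitosis genes 27 fell and none rose, with a median of -0.90. The mean over the replication list was 10.52 to 10.75 on the bone marrow arrays and 9.24 to 9.55 on the heart arrays, with no overlap. Bone marrow replicate 1 was the high one (10.75, with 10.52 to 10.55 on the others), and 29 fell without it too. Mcm5, a subunit of the replicative helicase, read 12.93, 12.78, 12.95 and 12.82 in bone marrow and 11.44, 11.36, 11.05 and 11.54 in heart (fell by 1.52 ± 0.10, adjusted p = 5.12e-11). Dut, which keeps uracil out of DNA, fell by 2.38, the replisome subunit Gins1 fell by 1.94, the ribonucleotide reductase subunit Rrm2 fell by 1.77 and the initiation factor Mcm10 fell by 1.67. Orc1 was the one that was not called (adjusted p = 0.279), and it was near background in both tissues. Of the mitosis genes, the topoisomerase Top2a read 11.39, 11.44, 11.54 and 11.48 in bone marrow and 9.89, 10.26, 9.99 and 10.33 in heart (fell by 1.34 ± 0.10), the spindle motor Kif11 fell by 1.32 and the kinase Aurka fell by 1.31. Cdc25c, the phosphatase that starts mitosis, fell by 1.63. Ect2, which drives the cytokinetic furrow, was not called (-0.15 ± 0.20, adjusted p = 0.551).

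A list of 28 tested cell cycle inhibitors, D cyclins and p53 targets ran the other way in part: 16 rose, 5 fell and 7 were not called. The list also holds genes that drive the cycle, such as Ccnd1 and Myc, so its counts are not those of inhibitors alone. Cdkn1a, the inhibitor p21, read 13.10, 13.05, 12.87 and 12.87 in bone marrow and 13.91, 13.84, 13.73 and 13.91 in heart (difference 0.88 ± 0.07). Pmaip1, the p53 target Noxa, rose by 2.26 ± 0.15, Plk2 by 1.91 ± 0.09 and Rb1, the retinoblastoma gene, by 1.24 ± 0.09. Cdkn2a, the locus of p16 and p19, had a difference of -0.78 ± 0.12, Myc of -0.60 ± 0.14 and Ccnd1, a D cyclin, of 0.46 ± 0.10. Core histone genes were mixed, with 5 of 17 higher and 10 lower. H2ac15 fell by 1.71, while H2bc14 rose by 1.23 ± 0.09.

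E2F sites (TTTCCCGC or TTTGGCGC, both strands) were found in the promoters of 6 of 25 replication genes (24.0%), against 1.56% of all promoters and 3.21% of tested genes. Among mitosis genes these sites were found in 1 of 24 (4.17%). The cell cycle genes homology region (CHR, TTTGAA, both strands) was found in 18 of 24 mitosis genes (75.0%), against 17.9% of all and 14.4% of tested genes. Both lists, like the others searched for motifs, were drawn up by known function, so these shares describe them and are no test. Promoters of 1 gene from each list are shown, with the E2F letters in capitals in Mcm5 (chr8:75109259-75109558, plus strand) and the CHR letters in capitals in Top2a (chr11:99024140-99024439, minus strand), both from RefSeq on GRCm38.p6.
Mcm5: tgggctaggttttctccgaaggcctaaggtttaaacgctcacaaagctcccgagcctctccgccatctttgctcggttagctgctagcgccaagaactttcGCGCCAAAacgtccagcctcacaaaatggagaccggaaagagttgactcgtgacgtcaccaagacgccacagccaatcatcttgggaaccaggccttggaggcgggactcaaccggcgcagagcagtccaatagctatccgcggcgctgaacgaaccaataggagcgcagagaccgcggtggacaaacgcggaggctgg
Top2a: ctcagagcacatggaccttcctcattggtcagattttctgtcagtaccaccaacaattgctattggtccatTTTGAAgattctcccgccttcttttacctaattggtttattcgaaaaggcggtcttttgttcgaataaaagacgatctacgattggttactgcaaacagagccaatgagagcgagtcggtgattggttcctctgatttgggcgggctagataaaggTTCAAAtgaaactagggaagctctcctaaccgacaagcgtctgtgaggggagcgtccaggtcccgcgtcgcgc

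Interferon response genes had the lowest median of the lists, cell type markers aside. Of 25 tested, 21 fell, 1 rose and 3 were not called, with a median of -1.85. Isg15, a ubiquitin-like modifier, read 9.23, 11.04, 11.48 and 11.45 in bone marrow and 7.30, 7.68, 7.69 and 7.20 in heart (fell by 3.33 ± 0.32, adjusted p = 2.83e-08). Rsad2, the antiviral enzyme viperin, read 8.71, 9.96, 9.92 and 10.09 and 6.75, 6.26, 5.76 and 6.47 (fell by 3.36 ± 0.26). Oasl2, a relative of the oligoadenylate synthetases, read 9.11, 11.32, 11.45 and 11.98 and 6.80, 6.97, 7.27 and 5.99 (fell by 4.21 ± 0.42). Bone marrow replicate 1 was the lowest of its group in each of these genes, and in each it was still above all heart arrays. The RNA helicase relative Dhx58 fell by 3.39, Oasl1 was at least 5.004-fold lower, and Apol9b, an interferon-induced apolipoprotein, at least 11.1-fold. Gbp2, a guanylate-binding protein, was the one that rose (1.10 ± 0.28), reading 9.07, 10.76, 10.91 and 11.24 in bone marrow and 11.65, 11.74, 11.59 and 11.40 in heart.

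The size of this difference depended on 1 array. The mean over the 25 genes was 8.46 on bone marrow replicate 1 and 9.81, 10.07 and 10.37 on replicates 2, 3 and 4, whereas the heart arrays ran from 7.67 to 7.95. Without bone marrow replicate 1, 24 genes were lower and 1 higher, with a median of -2.24. Genes such as Irf7, the interferon regulatory factor, spread widely within bone marrow (5.78, 7.94, 8.10 and 8.87), and so did Mx2 (5.75, 7.85, 8.26 and 8.55), Gbp3 (8.06, 10.18, 10.62 and 10.93) and Ifi27l2a (5.62, 7.88, 8.73 and 9.10). In Gbp3 and Ifi27l2a, replicate 1 lay within or below the heart values of 8.12, 8.41, 8.09 and 7.78 and 6.53, 6.25, 6.64 and 5.75. Ifit2 was not called (-0.07 ± 0.13), and was -0.25 (adjusted p = 0.0308) without that array. The kidney cells read 8.23, 8.07, 8.20 and 8.06 for Isg15, against which heart was not called lower (-0.67 ± 0.32, adjusted p = 0.0916).

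Antigen presentation genes followed in part. Of 16 tested, 7 fell, 2 rose and 7 were not called, and 10 fell without bone marrow replicate 1. The immunoproteasome subunits Psmb9 and Psmb8 fell by 1.29 and 0.97. In Psmb8, bone marrow replicate 1 (7.83) was below the lowest heart array (7.97). The peptide transporter subunit Tap1 read 5.69, 7.63, 8.05 and 7.81 in bone marrow and 6.42, 6.39, 6.51 and 6.38 in heart and fell by 0.87 (adjusted p = 0.034). The same bone marrow array was the lowest of all 8, and the Tap1 call was lost without any other single array, at adjusted p values of 0.0557 to 0.134. B2m, the light chain of class I molecules, was bright in both tissues and slightly higher in heart (0.24 ± 0.06), and H2-K1, a class I heavy chain, had a difference of 0.27 ± 0.22 (adjusted p = 0.317) with overlapping groups.

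**Figure D5:**
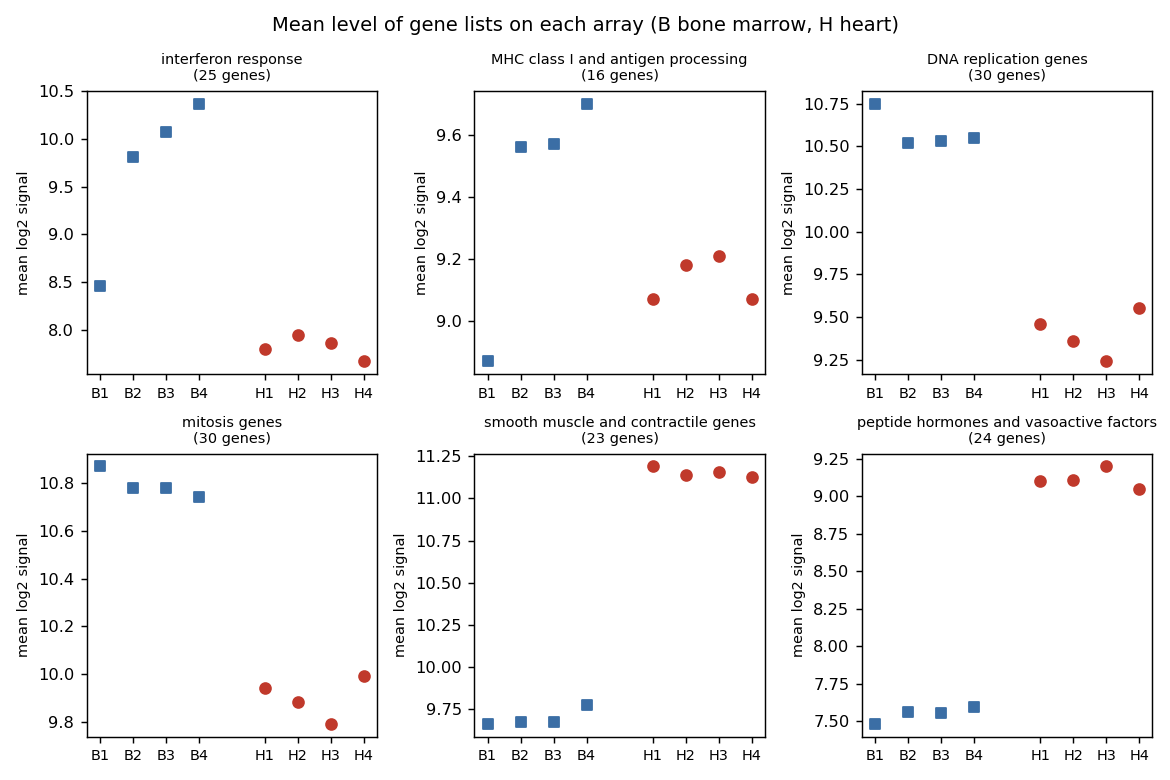
Mean normalized log2 signal over the tested genes of 6 lists on each array (B1 to B4 bone marrow replicates 1 to 4, blue squares; H1 to H4 heart replicates 1 to 4, red circles), each panel with its own vertical axis that does not start at 0. Bone marrow replicate 1 is low for interferon and MHC genes, at 8.46 and 8.87, and the highest of its group for replication and mitosis genes, at 10.75 and 10.87.

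The interferon-stimulated response element (ISRE, here GAAA, any 2 bases and GAAA again, searched on both strands) was found in the promoters of 13 of 20 interferon list genes (65.0%), against 3.44% of all promoters and 3.48% of tested genes. The list was drawn up from genes known as interferon targets. Across all promoters in the table, 24 held matches of 2 different motifs, among the 5 searched, that overlapped. The promoters of Isg15 (chr4:156200769-156201068, minus strand) and Rsad2 (chr12:26456403-26456702, minus strand) are shown as members with large falls, with the ISRE letters in capitals (RefSeq, GRCm38.p6).
Isg15: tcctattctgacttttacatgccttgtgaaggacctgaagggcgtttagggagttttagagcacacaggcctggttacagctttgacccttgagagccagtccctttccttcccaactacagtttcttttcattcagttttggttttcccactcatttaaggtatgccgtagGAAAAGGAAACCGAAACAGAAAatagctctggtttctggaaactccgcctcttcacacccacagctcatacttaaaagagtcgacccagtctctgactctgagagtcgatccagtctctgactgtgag
Rsad2: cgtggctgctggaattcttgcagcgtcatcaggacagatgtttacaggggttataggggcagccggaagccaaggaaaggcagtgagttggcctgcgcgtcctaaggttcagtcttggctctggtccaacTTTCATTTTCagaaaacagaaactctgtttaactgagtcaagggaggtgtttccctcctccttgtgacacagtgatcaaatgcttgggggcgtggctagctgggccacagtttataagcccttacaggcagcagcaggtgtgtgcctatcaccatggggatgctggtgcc

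Hypoxia response and glycolysis genes were more often higher in heart, with 14 of 25 rising, 3 falling and 8 not called and a small median of 0.34. Ankrd37, a target of hypoxia-inducible factor, read 6.86, 6.22, 5.24 and 6.40 in bone marrow and 8.95, 8.70, 9.06 and 8.82 in heart (difference 2.71 ± 0.24, adjusted p = 9.90e-09). The stress gene Ndrg1 rose by 1.83 ± 0.15, the prolyl hydroxylase Egln3 by 1.48 ± 0.19 and the glucose transporter Slc2a1 by 1.24 ± 0.07. Vegfa, a standard target of the same factor, ran against them, as given above. The hypoxia element (ACGTGC, both strands) was found in 12 of 22 list promoters (54.5%), against 5.91% of all and 9.43% of tested genes. The Ankrd37 promoter (chr8:45999801-46000100, minus strand, RefSeq, GRCm38.p6) is shown with those letters in capitals.
Ankrd37: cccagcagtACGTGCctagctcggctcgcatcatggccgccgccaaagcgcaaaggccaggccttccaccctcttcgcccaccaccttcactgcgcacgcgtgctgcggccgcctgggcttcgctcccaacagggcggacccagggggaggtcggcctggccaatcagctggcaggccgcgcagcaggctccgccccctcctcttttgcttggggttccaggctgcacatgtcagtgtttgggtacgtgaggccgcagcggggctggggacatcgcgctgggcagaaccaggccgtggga

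Biosynthetic genes were lower by smaller amounts. Of 26 genes of sterol and fatty acid synthesis, 16 fell, 1 rose (2 without bone marrow replicate 1 or 4) and 9 were not called, with a median of -0.60. The desaturase Fads2 fell by 1.56, from 9.95, 10.05, 9.95 and 10.04 to 8.28, 8.52, 8.33 and 8.61, the desaturase Scd2 fell by 1.08, Dhcr7, a late enzyme of cholesterol synthesis, fell by 1.44 and Mvd fell by 1.14, while the sterol desaturase Sc5d rose by 1.06 ± 0.15. Of 25 amino acid synthesis and transport genes that the factor ATF4 controls, 16 fell, 2 rose and 7 were not called, with a median of -0.46. The amino acid carrier Slc38a1 fell by 1.01. Shmt2, which makes one-carbon units in mitochondria, fell by 1.22 and Aldh1l2 fell by 1.05, whereas Vldlr, a lipoprotein receptor, rose by 2.84 ± 0.13. Of 22 unfolded protein response genes, 8 fell (36.4%, against 29.6% of all genes tested) and 4 rose (18.2%, against 26.4%). Their median was -0.11, near the -0.03 over all genes tested. The pseudokinase Trib3 was at the head of the falls (-1.45).

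Housekeeping machinery was close between the tissues. Of 48 respiratory chain genes, 27 were not called, 18 fell and 3 rose (5 without bone marrow replicate 1), with a median of -0.06. Of 33 ribosomal protein genes 23 were not called, 9 fell and 1 rose, with a median of -0.04. The shares that fell were 37.5% and 27.3%, against 29.6% of all genes tested. Those that rose were 6.25% and 3.03%, against 26.4%. Leaving out bone marrow replicate 1 made that 1 ribosomal rise 3, leaving out replicate 2 made it 2, and leaving out heart replicate 1 made it 0. Uqcrq, of complex III, fell by 0.84, its partner Cyc1 fell by 0.62, Rpl30 fell by 0.89 and Rplp0 fell by 0.68. Of the 6 brightest genes, Rps4x, Rpl9, Tuba1b and Rps12 lay between 15.71 and 15.90 on every array and were not called. Rps24, of the small ribosomal subunit, was not called either (-0.03 ± 0.05), but was -0.44 (adjusted p = 2.36e-06) with the mean of its probes. Zyx, the focal adhesion protein zyxin, read 15.61, 15.74, 15.75 and 15.70 in bone marrow and 15.90, 15.79, 15.82 and 15.87 in heart, a rise by 0.14 ± 0.06 (adjusted p = 0.0427). It was not called with a replicate block (adjusted p = 0.0664), and it was lost without bone marrow replicate 1 or 4 or heart replicate 1, 3 or 4, at up to 0.116. At such signals the array's upper range may hide differences, which was not tested.

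Immediate early, YAP, antioxidant and lysosome lists each held more rises than falls. Immediate early genes were higher for 17 of 23 and lower for 2, with a median of 0.64: Fos read 11.51, 11.96, 12.15 and 12.18 in bone marrow and 13.35, 13.38, 13.80 and 13.36 in heart (difference 1.52 ± 0.13), Fosb rose by 1.91 ± 0.14, and Egr2 fell by 1.59. Targets and members of the YAP and TEAD pathway were higher for 14 of 21 and lower for 4, led by the muscle ankyrin repeat gene Ankrd1, which read 9.73, 9.34, 9.46 and 9.15 in bone marrow and 12.82, 12.86, 12.85 and 13.13 in heart (difference 3.49 ± 0.10). Antioxidant and metallothionein genes were higher for 16 of 29 and lower for 5, with the extracellular dismutase Sod3 up by 2.95 ± 0.17 and Gstm5 by 1.90 ± 0.08, while Gsta4 fell by 1.85. Lysosome and autophagy genes were higher for 17 of 33 and lower for 3, with Ctsf, a cathepsin, up by 1.86 ± 0.15 and Ppt1 by 1.42 ± 0.10.

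Retinoid and steroid enzymes held some of the larger differences, with 7 of 17 higher and 4 lower. Aldh1a1, which makes retinoic acid, read 4.84, 4.92, 4.62 and 4.74 in bone marrow and 9.54, 9.21, 9.44 and 9.23 in heart and was at least 12.95-fold higher. Ch25h, the cholesterol 25-hydroxylase, read 7.80, 7.90, 7.72 and 7.73 and 11.14, 11.36, 11.41 and 11.18, a rise by 3.48 ± 0.10, and Cyp7b1, which acts on its product, rose by 2.37 ± 0.23. Dio3, which inactivates thyroid hormone, read 11.18, 12.10, 12.10 and 12.26 in bone marrow and 8.49, 8.75, 8.89 and 7.97 in heart (fell by 3.38 ± 0.26), and the retinoic acid receptor Rarb fell by 2.12.

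Genes of the skeletal lineage were mostly lower in heart, and those of the fat lineage went both ways. Of 14 osteoblast and chondrocyte genes, 10 fell, 2 rose and 2 were not called, with a median of -0.49, and 8 fell without bone marrow replicate 1. Sp7, the osteoblast factor osterix, read 7.82, 7.84, 7.78 and 7.97 in bone marrow and 5.05, 4.74, 4.79 and 4.67 in heart and was at least 4.76-fold lower (adjusted p = 1.07e-12). Alpl, alkaline phosphatase, was not called (-0.44 ± 0.21, adjusted p = 0.0813) but was -0.64 (adjusted p = 0.00972) without heart replicate 2. Ank, a pyrophosphate transporter, fell by 2.18 and the homeobox gene Msx1 fell by 1.53. Against these, Mgp, matrix Gla protein, an inhibitor of calcification, read 13.70, 13.90, 14.04 and 14.04 in bone marrow and 15.77, 15.73, 15.73 and 15.69 in heart, a rise by 1.81 ± 0.07. Adipogenic genes were 7 of 17 lower and 5 higher, with a median of -0.05. That is 41.2% lower and 29.4% higher, against 29.6% and 26.4% of all genes tested. Pparg, the adipocyte regulator, read 12.39, 11.74, 11.49 and 11.31 in bone marrow and 9.83, 9.56, 9.52 and 10.09 in heart (fell by 1.98 ± 0.17), Cebpa was at least 1.7-fold lower, and Lpl has been given. Klf4, also on that list, rose by 1.68 ± 0.11.

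Factors by which marrow stroma supports blood cells did not share a direction, with 9 of 16 higher, 6 lower and 1, Cxcl12, not called. Il15 rose by 2.02 ± 0.13 and Il7 had a difference of 0.96 ± 0.14, while Dlk1, a Notch-like surface protein, read 14.64, 14.48, 14.37 and 14.46 in bone marrow and 11.91, 11.52, 11.66 and 11.79 in heart (fell by 2.77 ± 0.09) and Ebf1, a factor of marrow stroma, fell by 1.45. Kitl, the stem cell factor that acts on the receptor Kit, read 7.30, 6.14, 6.56 and 6.34 in bone marrow and 7.52, 7.20, 6.96 and 7.24 in heart, with overlapping groups (difference 0.64 ± 0.25, adjusted p = 0.0323). That call was lost without bone marrow replicate 2, 3 or 4 or heart replicate 1, 2 or 4, at adjusted p values up to 0.117. Angpt1, a Tie2 ligand, was at least 2.21-fold lower. Of 10 Notch pathway genes, 7 were not called, 2 fell and 1 rose (2 without bone marrow replicate 4).

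Spread within a tissue was small for most genes, with a median SD of 0.168 log2 units in bone marrow and 0.128 in heart. The widest spread in bone marrow belonged mostly to interferon genes, through replicate 1. Trim30a, which interferon induces, read 6.50, 8.48, 8.99 and 9.42 in bone marrow and 7.53, 7.14, 7.45 and 6.93 in heart and fell by 1.09 (adjusted p = 0.0317), a call lost without bone marrow replicate 2, 3 or 4 or heart replicate 2 or 4 (adjusted p up to 0.13). Hp, the acute-phase protein haptoglobin, read 8.11, 10.48, 10.36 and 10.61 and 8.59, 9.39, 9.91 and 8.15 and was not called (-0.88 ± 0.43, adjusted p = 0.0925). Without bone marrow replicate 1, the low array, it was -1.47 (adjusted p = 5.54e-05). Crct1, a gene of the cornified envelope cluster, was an exception, with replicate 1 high (10.39, 8.21, 7.84 and 7.67 in bone marrow, 11.96, 11.99, 12.10 and 12.13 in heart). In heart, Uba6, a ubiquitin-activating enzyme, read 12.07, 12.07, 12.27 and 9.28, with replicate 4 far below the others, and 2900060B14Rik read 8.40, 8.62, 8.43 and 5.83, again with replicate 4 low. In bone marrow the same genes read 10.84, 8.48, 10.62 and 10.59 and 9.53, 6.59, 9.06 and 8.88, with replicate 2 low in both. Uba6 was not called (1.29 ± 0.61, adjusted p = 0.0814), but was 2.00 (adjusted p = 0.00315) without heart replicate 4 and 1.52 (adjusted p = 0.0271) without bone marrow replicate 1. 2900060B14Rik was not called either (-0.69 ± 0.59), and was -1.33 (adjusted p = 0.0412) without bone marrow replicate 2. Wide spread in heart was also seen in 5 other genes. Zbtb38, a zinc finger protein that binds methylated DNA, read 7.48, 6.86, 7.43 and 7.91 in bone marrow and 7.82, 8.76, 7.46 and 9.02 in heart (difference 0.84 ± 0.30, adjusted p = 0.0226), and its call was lost without bone marrow replicate 2 or heart replicate 2 or 4. The metallothionein Mt2 read 5.99, 6.18, 5.48 and 6.20 and 6.90, 7.86, 7.31 and 5.73 (difference 0.99 ± 0.34, adjusted p = 0.019), and its call was lost without bone marrow replicate 3 or heart replicate 2 or 3. In both genes the tissues overlapped. Ccdc51 read 6.76, 6.11, 6.79 and 7.81 in heart and was not called (-0.56 ± 0.25), but was -0.87 (adjusted p = 0.00149) without heart replicate 4, -0.66 (adjusted p = 0.0258) without bone marrow replicate 1 and adjusted p = 0.0218 with a replicate block. Elobl read 4.71, 5.33, 5.34 and 6.17 in bone marrow and 7.53, 7.98, 8.03 and 6.64 in heart and was at least 3.37-fold higher, with replicate 4 the lowest in heart. Dgki, a diacylglycerol kinase, had heart replicate 1 low (5.09, 6.41, 6.43 and 6.29) and was not called.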

How the data were processed

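Expression was measured on 12 single-colour Illumina bead arrays, 4 each from bone marrow, heart and kidney cells. The deposited table holds, per the file headers, a non-normalized probe intensity for each array and beside it a detection fraction, headed as a p-value. That fraction rises with the signal (rank correlation at least 0.972), so limma was given its complement as the detection p-value. Per the submitters' processing notes the authors used lumi (settings not stated here), and their deposited processed intensity served only as an alternative. Of 45281 entries under 35746 identifiers, 6798 identifiers repeat. Entries were kept as separate probes, and 206 of 209 variable pairs with a shared identifier correlated above 0.8. Genes were named through the platform annotation, updated to RefSeq (GRCm38.p6): 26385 identifiers had 1 symbol, 18 had several and 9343 had none here. No genome build is stated for the array.

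In limma 3.58.1 (R 4.3.3), neqc with an offset of 16 corrected the background from detection p-values and normalized between arrays on the log2 scale. Probes with a detection value above 0.95 on at least 4 of the 12 arrays were kept, and the brightest kept probe stood for a gene, which gave 10797 genes. Of 2693 called members with several kept probes, 67 had another probe called the opposite way. A mean per tissue was fitted on all 12 arrays (lmFit, eBayes with trend), so the kidney arrays share the estimate of spread. Tests were two-sided, and Benjamini-Hochberg adjusted p under 0.05 made a call. The fold is a lower bound where the fainter tissue had no array on which any probe of the gene was detected, or where that tissue's mean was under its mean floor. For it, each faint array was set to its lowest detected signal or to the measured value if that was higher. The number of arrays limits the precision. The fit was tested on simulated data.

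Members and gene lists were chosen with earlier results of these data known, so list counts are descriptions and no list was tested. Named genes are the 15 largest rises and falls that were called, separate between tissues and detected throughout the higher one, up to 5 called members per list by size, a fixed set, the brightest genes and those of highest SD. Other list genes are given with their values, and these, like the single exceptions to a list's direction, were chosen after their values were seen, as was the choice among those allowed. Same-numbered samples of the 2 tissues did not deviate together (correlations 0.056, -0.031, 0.0034 and -0.20), so they were not treated as pairs. Promoters are RefSeq's on GRCm38.p6, in which 32851 promoters were searched. Alternatives are given in the closing section.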

Additional observations from a re-analysis of the deposited data

Results flagged for a closer look

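In 45 of 550 groups of 4 arrays (1 tissue and 1 named gene each), the highest or lowest array stood apart: its gap to the nearest other array, as a share of the group's range, exceeded Dixon's critical value at the 95% level. Chance gives about 1 in 20 such groups. Some named genes were chosen for their high SD, so the observed rate cannot be set against that. The array that stood apart was bone marrow replicate 1 in 21 of the 45 groups and heart replicate 4 in 8. The shares are given in brackets.

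Among the bone marrow arrays, replicate 1 was the low one for Lpl (0.8496), Hoxa10 (0.8314), Ednrb (0.8477), Kng1 (0.88), Cxcl10 (0.8713), Ppbp (0.8684), Mylk (0.9025), Rsad2 (0.8772), Cyp7b1 (0.9306), Dio3 (0.8533), Klf4 (0.93), Il7 (0.847), Hp (0.9002), Mfap2 (0.9102) and Angpt1 (0.8318). It was the high one for Cck (0.8577), Hoxb2 (0.9967), Hoxa7 (0.8631), Timp3 (0.9939), Nrcam (0.9453) and Inhba (0.8348). Replicate 2 of bone marrow was the low one for Uba6 (0.895). It was the high one for Htra1 (0.9237), Sc5d (0.8324) and Eng (0.8607). Replicate 4 of bone marrow was the low one for Mbp (0.8769) and Aurka (0.8292). It was the high one for Maob (0.9476) and Fzd2 (0.867).

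Among the heart arrays, replicate 1 was the low one for Fst (0.8394) and Dgki (0.9015). It was the high one for Des (0.8468). Replicate 2 of heart was the high one for Cd59a (0.869) and Peg3 (0.8494). Among the heart arrays, replicate 3 was the low one for Orc1 (0.8618). It was the high one for Fos (0.9345) and Ctsf (0.8449). Replicate 4 of heart was the low one for Maob (0.8728), Itga11 (0.8379), Uba6 (0.9324) and 2900060B14Rik (0.9195). It was the high one for Gzmd (0.8969), Hoxc13 (0.9427), Gsta4 (0.8818) and Ankrd1 (0.8911).

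The widest of these gaps was that of Uba6 in heart, where replicate 4 read 9.28 and the others 12.07 to 12.27. In bone marrow the low array of Uba6 was replicate 2, at 8.48 against 10.59 to 10.84. Timp3 was at 11.88 on bone marrow replicate 1, with 11.34 to 11.35 elsewhere in bone marrow, and Cyp7b1 at 6.04 against 7.34 to 7.44. For Cck, Maob, Hoxb2, Ednrb and Mbp in bone marrow and Gzmd, Hoxc13, Orc1 and Dgki in heart, at least 1 of the 4 arrays was below the mean lowest detected signal of its tissue. Values near it were also found for Nrcam in bone marrow (5.72 to 5.78 on the arrays other than replicate 1) and 2900060B14Rik in heart (5.83 on replicate 4).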

How the results depend on the processing

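Among members, genes higher in heart numbered 2800 and genes lower 3135, and over all alternatives these counts ranged from 2317 to 2877 and from 2880 to 3213. The lowest values came from probes detected on all 8 arrays (2317 higher, of 8643 genes tested) and from the authors' deposited values (2880 lower, of 10051 genes). Leaving out 1 array gave 2617 to 2790 higher and 2900 to 3213 lower. With a replicate block they were 2791 and 3110, and the block changed no count by over 1.5 times. What the replicate numbers stand for, beyond naming samples, is not stated. The count of at least 2-fold rises was more sensitive: 904 in the analysis as reported, 567 if no background was subtracted and 542 if a probe had to be detected on all 8 arrays, which drops genes seen in 1 tissue. At least 2-fold falls numbered 598, and 332 without background correction. Genes within 1.5-fold numbered 4307, and 11867 with no detection filter, which brings in genes at background. With only the first entry of each identifier, an alternative chosen after seeing the data, 2557 were higher and 2889 lower. Of 275 named genes, 250 kept their direction and their side of the threshold wherever they had a value, over 8 alternatives and 8 fits without 1 array. Of these genes 178 had a value in every one, and 160 of the 178 kept both; 88 had none with probes detected on all 8 arrays, 18 none in the authors' deposited values and 18 none with first entries. The 25 that changed were Gata4, Cxcl12, Col1a1, Col1a2, Col3a1, Acta2, Ifit2, Pdgfra, Uba6, 2900060B14Rik, Ccdc51, Zbtb38, Mt2, Vcan, Tap1, Kitl, Alpl, Hp, Trim30a, Zyx, Rps24, Kcnj8, Tnnc1, Ttn and Cd14. A replicate block made calls of Ccdc51 (adjusted p = 0.0218) and Hp (adjusted p = 0.0259) and ended those of Zyx (adjusted p = 0.0664) and Kcnj8 (adjusted p = 0.0684). Cxcl12 alone changed sign, from -0.13 (adjusted p = 0.595) to 0.64 (adjusted p = 0.00509) with the mean of its probes, and the cause was not tested. Gata4 was also lost in 4 alternatives other than leaving out an array, Tap1 in 3, Trim30a, Zyx and Kcnj8 in 2 each, and Vcan, Kitl and Ttn in 1 each. The files used here give no slide or scan, so a slide block was not run. Signals near the floor have no order, which limits differences of dim genes.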
